A study of Mus musculus with 4 samples.

Results

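The satellite class of the repeat annotation holds 9 families in these libraries, of which 7 are described here: IMPB_01, MMSAT4, ZP3AR, SUBTEL_sa, MurSAT1, CENSAT_MC and (CATTC)n. They were taken by name, as every entry whose class is Satellite, out of 1562 repeat families counted beside 54842 genes. GSAT_MM, the major satellite repeats (MSR), and SYNREP_MM belong to the same class and serve as reference only. The rule itself uses the annotation alone.

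RNA came from untreated mouse embryonic fibroblasts (MEF cells), with 2 libraries from wild-type (wt) cells and 2 from cells that lack Top2β, a DNA topoisomerase that passes one DNA duplex through another. The Top2β-null MEF cells stem from Top2β-null mice and were received from other laboratories, so genotype and origin of the cells cannot be told apart. Neither the number of embryos or lines nor the origin of the replicates as separate cultures is stated, and p-values may therefore reflect technical spread alone. Total RNA was treated with DNase, depleted of ribosomal RNA and sequenced without selection for poly(A) tails.

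Satellites are short DNA units repeated head to tail in long arrays. In the mouse, major satellite forms the pericentric heterochromatin and minor satellite the centromere itself, and both are packed by histone methylation at H3K9, HP1 proteins and DNA methylation. The smaller families are known mainly from the RepeatMasker annotation: SUBTEL_sa is named for the regions next to telomeres, CENSAT_MC carries a centromeric label, MMSAT4 and MurSAT1 are named as mouse and murine satellites, and (CATTC)n is a pentamer that reads GAATG on the opposite strand.

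One MSR unit is shown as the reference for what a satellite monomer looks like, because the other families are set against it throughout. It comes from the study's supplement as the forward strand, 5′ to 3′, with no genome position, and is a unit the study derived by sequencing mouse cells that differs from the mouse MSR consensus at a few bases. Capitals mark the pentamer GAAAA.

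MSR unit: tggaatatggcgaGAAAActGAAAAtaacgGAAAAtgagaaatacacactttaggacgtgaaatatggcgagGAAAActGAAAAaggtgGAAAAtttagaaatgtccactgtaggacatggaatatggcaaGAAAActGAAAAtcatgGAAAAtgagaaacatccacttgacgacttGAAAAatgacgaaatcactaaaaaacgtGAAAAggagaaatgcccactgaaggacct

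The unit has 234 bases, of which 63.2% are A or T and 45.7% are A on this strand. GAAAA occurs 11 times on the forward strand and 0 times on the reverse strand, read as a tandem array so that the end joins the start. In windows of the same length from RefSeq promoters (GRCm38.p6, 32851 windows), 47.6% hold GAAAA on either strand. The dinucleotide CG, the site of DNA methylation, occurs 7 times, and 91.3% of the promoter windows hold it. GAATG, the pentamer of the (CATTC)n family, has 0 matches on both strands of the unit, against 32.3% of promoter windows. The CENP-B box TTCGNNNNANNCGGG, the motif bound by the centromere protein CENP-B, also has 0 matches, against 0.0426% of promoter windows. These counts describe letters only.

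The libraries held 142460700 and 149647278 counts in wt and 133116830 and 138182262 in the null cells. The targeted gene Top2b had 18259 and 18465 normalized counts in wt and 3879 and 3789 in the null cells, 20.9% of the wt mean, in the direction of the labels. Here a normalized count is a count scaled to a common effective library size. Of 10 fibroblast markers, 9 were above 100 normalized counts in every library. The exception was Postn with 2573 and 2563 in wt and 41.4 and 46.5 in the null cells. The sum of the 10 was 1311843 and 1336449 in wt and 891553 and 896501 in the null cells, without overlap, and its members moved both ways, with Col1a1 at 287594 and 298043 against 112305 and 112511 and Thy1 at 4236 and 4367 against 17784 and 18440. All 3 leukocyte markers were below 10 in every library, with sums of 4.95 to 6.76. The 3 pluripotency markers summed to 14.5 and 16.1 in wt and to 730 and 792 in the null cells, where Sox2 alone had 677 and 730 against 0 in both wt libraries. Nanog had 3.03 and 0.966 in wt and 43.5 and 42.6 in the null cells. Pou5f1 overlapped, with 13.1 and 13.5 against 9.32 and 19.8. The 3 endothelial markers summed to 92.9 and 93.7 in wt and to 48.7 and 52.5 in the null cells, and the 3 epithelial markers to 24.1 and 24.2 against 13.5 and 13.9, without overlap of the groups. Most of each difference lay in a single gene of low level, Tek (43.4 and 34.8 against 9.32 and 3.96) and Cdh1 (19.2 and 23.2 against 7.25 and 8.91), while Cdh5, Krt14 and Epcam overlapped. These marker differences run alongside every comparison of the genotypes, and their part in the satellite values was not tested.

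The satellite class took 78904 and 81948 counts in wt and 86296 and 85693 in the null cells, with both null libraries above both wt libraries. That is 0.284% ± 0.000698 of all repeat counts in wt and 0.304% ± 0.00143 in the null cells (SD, n = 2 each). Of all counts, the class made up 0.0551% ± 0.000442 and 0.0634% ± 0.00199. With 2 libraries per group, the 2-sided exact permutation test cannot give a p below 0.333, which is the value reached by each difference in the share of the class and in the sums given below. The 7 families other than the references held nearly the whole class, 94.0% ± 0.111 of it in wt and 93.3% ± 0.193 in the null cells.

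Summed over these 7 families, the normalized counts were 74918 and 74337 in wt and 83516 and 79078 in the null cells. The sum was 0.12 higher on the log2 scale in the null cells, against a replicate SD of 0.040, and 0.19 higher with libraries scaled to the total count. MMSAT4 gained 6495 normalized counts between the group means, which is 84.1% of the 7728 gained by the class. MSR gained 26.1% of that amount, while SYNREP_MM and SUBTEL_sa lost counts, equal to -12.4% and -1.08% of the class change. When each library was left out in turn, the gain of the class lay between 5477 and 9979 normalized counts and the part of MMSAT4 between 67.3% (without the second null replicate) and 115% (without the first). The parts of IMPB_01 and ZP3AR, 7.85% and -4.57%, rest on single libraries: they were 20.4% and 2.05% without the second null replicate and -15.0% and -16.6% without the first. That of SUBTEL_sa ran from -1.70% to -0.747% over the same 2 settings. All these parts were computed under 1 scaling of the libraries and depend on it. As shares of repeat counts, the class changed by 0.0203 percentage points. On that base MMSAT4 changed by 0.0214, IMPB_01 by -0.00157 and ZP3AR by -0.00251 percentage points.

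Only 4 of the 7 families held enough counts to be fitted (at least 10 in at least 2 libraries). In edgeR's quasi-likelihood test across all 26566 features, 1 of the 4 was higher and 1 lower in Top2β-null MEF cells at an adjusted p below 0.05. This is to be read against 32.5% of all features called higher and 32.5% called lower at that threshold, and against 27.6% higher and 12.5% lower among the 1481 repeat families fitted. By the study's cut-offs, which also ask for a log2 fold change beyond 1 in either direction and for a mean of over 100 normalized counts, 0 of the 4 families were called by edgeR or by DESeq2. With either tool, 2 had an unadjusted p below 0.05, and the same 2 passed the adjusted threshold. At that threshold DESeq2 called 7507 of the 26566 features higher and 7262 lower. In edgeR, the study's cut-offs called 5.27% of all features higher and 4.97% lower, and 0.945% of repeat families higher and 0.203% lower. SYNREP_MM passed them and MSR did not, as the change of MSR was below the size cut-off. The study reports a modest rise of MSR transcripts in these null cells as significant after adjustment.

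**Figure D1:**
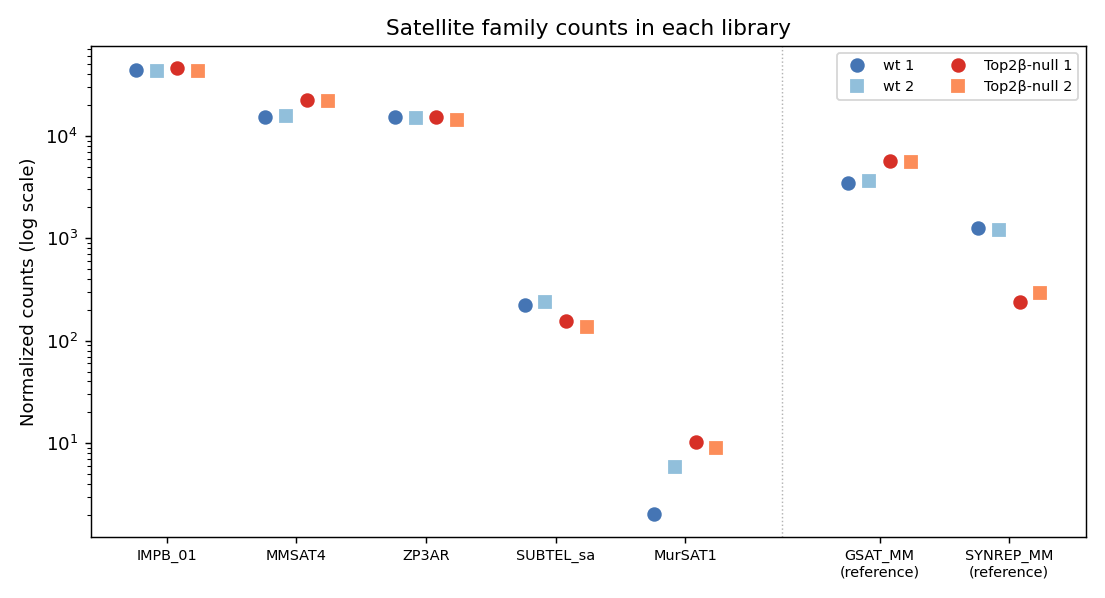
Normalized counts of the 5 members with counts in most libraries and of the references GSAT_MM and SYNREP_MM, on a log axis, with 1 point per library and wt and Top2β-null MEF cells in separate colours. MMSAT4 lies at 15404 and 15806 in wt and at 22321 and 21879 in the null cells, and SUBTEL_sa moves the other way, while the libraries of IMPB_01 and ZP3AR interleave.

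MMSAT4 was higher in Top2β-null MEF cells. It had 15262 and 16364 counts in wt and 21552 and 22091 in the null libraries, or 15404 and 15806 against 22321 and 21879 normalized counts. The groups do not overlap and the replicates of each lie close together. The mean rose from 15605 ± 284 to 22100 ± 312 normalized counts (SD, n = 2 each), 1.42-fold. On the log2 scale the change was 0.50 (SE 0.025, 95% interval 0.45 to 0.56, adjusted p = 3.96e-11 in edgeR's quasi-likelihood test). Its share of the satellite class went from 19.3% and 20.0% in wt to 24.97% and 25.78% in Top2β-null MEF cells. Counted without the references, the share was 20.6% and 21.3% in wt and 26.7% and 27.7% in the null cells.

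Among the 1296 repeat families with a mean above 100 normalized counts, MMSAT4 ranked 64 from the highest change. Of 179 repeat families whose mean lay between 0.5 and 2 times its own, 7 changed at least as much in either direction. Among all 2449 features of that abundance, mostly genes, 26.0% did. The change of MMSAT4 is thus uncommon for a repeat family of its level and common for a gene of its level.

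MMSAT4 and MSR rose by similar but not equal amounts. MSR had 3463 and 3619 normalized counts in wt and 5621 and 5501 in the null cells, a log2 fold change of 0.65 (SE 0.033, adjusted p = 4.9e-11 in edgeR's test). The log2 ratio of MMSAT4 to MSR was 2.15 and 2.13 in wt and 1.99 and 1.99 in the null cells, so that the ratio of counts went from 4.41 to 3.97. The difference of -0.15 compares with a replicate SD of 0.013. That SD rests on 2 libraries per group and may understate the error. Counting alone predicts a coefficient of variation of 1.67% in wt and 1.35% in the null cells for MSR.

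SUBTEL_sa, the subtelomeric family, was lower in Top2β-null MEF cells. It had 219 and 245 counts in wt and 149 and 137 in the null libraries, or 221 and 237 against 154 and 136 normalized counts. Every null library lies below every wt library. The mean fell from 229 ± 11.04 to 145 ± 13.2 normalized counts (SD, n = 2 each), 63.4% of the wt level. The log2 fold change was -0.66 (SE 0.13, 95% interval -0.94 to -0.38, adjusted p = 3.04e-04 in edgeR's quasi-likelihood test). At this depth the coefficient of variation expected from counting alone is 6.57% in wt and 8.36% in the null cells, and the replicates varied by 4.82% and 9.08%, so that counting noise is as large as their spread.

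SUBTEL_sa held 0.278% and 0.299% of the class in wt and 0.173% and 0.160% in the null cells. It ranked 15 from the lowest change among the 1296 repeat families, and 27 of 251 repeat families of similar abundance changed at least as much. Among all 4637 features of that abundance, 33.6% did. The hexamer of the telomere itself, which the table lists as a simple repeat and which was looked up after the value of SUBTEL_sa was known, was not called: (TTAGGG)n had a log2 fold change of -0.0051 (adjusted p = 0.949 in edgeR's test) and (CCCTAA)n, the same hexamer on the other strand, of -0.035 (adjusted p = 0.634).

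IMPB_01 held the most counts of any satellite family, with 43716 and 44818 in wt and 44168 and 43297 in the null cells. Normalized, these were 44123 and 43290 against 45744 and 42882, and the groups overlap. The means of 43706 ± 589 and 44313 ± 2023 (SD, n = 2 each) gave a log2 fold change of 0.020 (SE 0.031, adjusted p = 0.593 in edgeR's test). The 95% interval reached from a fold of 0.969 to 1.06. Its share of the class went from 55.4% and 54.7% in wt to 51.2% and 50.5% in the null cells, so the share of a family whose own level was not called fell by 4.19 percentage points as that of MMSAT4 rose by 5.72.

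ZP3AR behaved much like IMPB_01. It had 15025 and 15529 counts in wt and 14760 and 14308 in the null cells, or 15165 and 14999 against 15287 and 14171 normalized counts. The groups overlap here too. The means were 15082 ± 117 and 14729 ± 789 (SD, n = 2 each), with a log2 fold change of -0.034 (SE 0.031, adjusted p = 0.357 in edgeR's test) and a 95% interval from a fold of 0.932 to 1.02. Its share of the class went from 19.0% and 18.9% to 17.1% and 16.7%.

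In both families the first null replicate stood above the second by more than the wt replicates differed. Counting predicts a coefficient of variation of 0.475% in wt and 0.478% in the null cells for IMPB_01, and the replicates varied by 1.35% and 4.57%. In the first null replicate repeats took 21.4% of all counts, against 20.3% in the second, and 19.5% and 19.3% in wt. Taken as a share of repeat counts, IMPB_01 was at 0.158% and 0.155% in wt and at 0.155% and 0.154% in the null cells, and ZP3AR at 0.0541% and 0.0537% against 0.0518% and 0.0510%. The part of the repeat share in these values was not tested. The calls follow the scaling: IMPB_01 was called higher with libraries scaled to the total count (0.089, adjusted p = 0.0165 in edgeR's test). ZP3AR was called lower with repeat families fitted alone (-0.070, adjusted p = 0.00913 in edgeR's test). The values follow the replicate too, with IMPB_01 at 0.084 without the second null replicate. That fit leaves 1 null library, which gives no spread of its group.

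**Figure D2:**
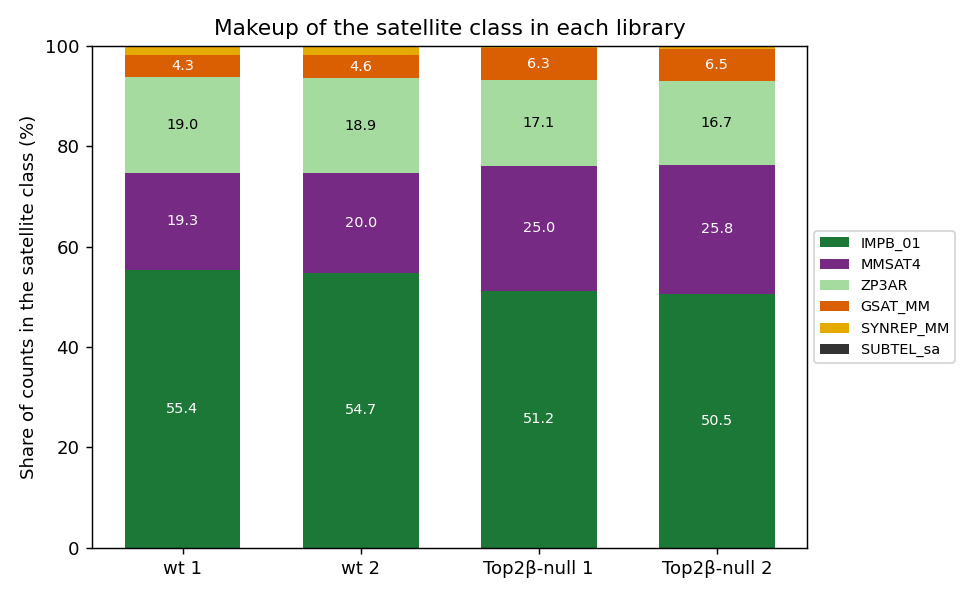
Share of each satellite family in the class (percent of satellite counts), as 1 stacked bar per library. MMSAT4 widens from 19.3% and 20.0% in wt to 24.97% and 25.78% in Top2β-null MEF cells, and IMPB_01 narrows from 55.4% and 54.7% to 51.2% and 50.5%.

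The make-up of the class therefore differed between the genotypes, by 7.65 percentage points of satellite counts that would have to be moved between families to turn one mean profile into the other. Replicates differed by 0.877 percentage points in wt and 1.08 in the null cells. The families differ in length and copy number, which were not corrected for, so the shares describe counts and not molecules.

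Ratios between families need no scaling of the libraries, and 15 pairs of the 6 families with enough counts were compared. If reads aligned to several families were divided among them in counting, the counts of related families depend on each other, and so do these ratios. IMPB_01 and ZP3AR stood in a similar ratio in all 4 libraries, with log2 values of 1.54 and 1.53 in wt and 1.58 and 1.60 in the null cells. This is a ratio of 2.90 in wt and 3.01 in the null cells, a log2 difference of 0.054 that is small but larger than the replicate SD of 0.010. An SD from 2 libraries per group may understate the error here too. By contrast, the log2 ratio of IMPB_01 to MMSAT4 was 1.52 and 1.45 in wt and 1.04 and 0.97 in the null cells, a change in ratio from 2.80 to 2.00 (log2 difference -0.48, replicate SD 0.046). MMSAT4 and SUBTEL_sa moved farthest apart among pairs without a reference, from a ratio of 68.2 to 153 (log2 difference 1.16). For every one of the 15 pairs the exact permutation test was at its smallest p of 0.333, also after Benjamini-Hochberg adjustment.

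**Figure D3:**
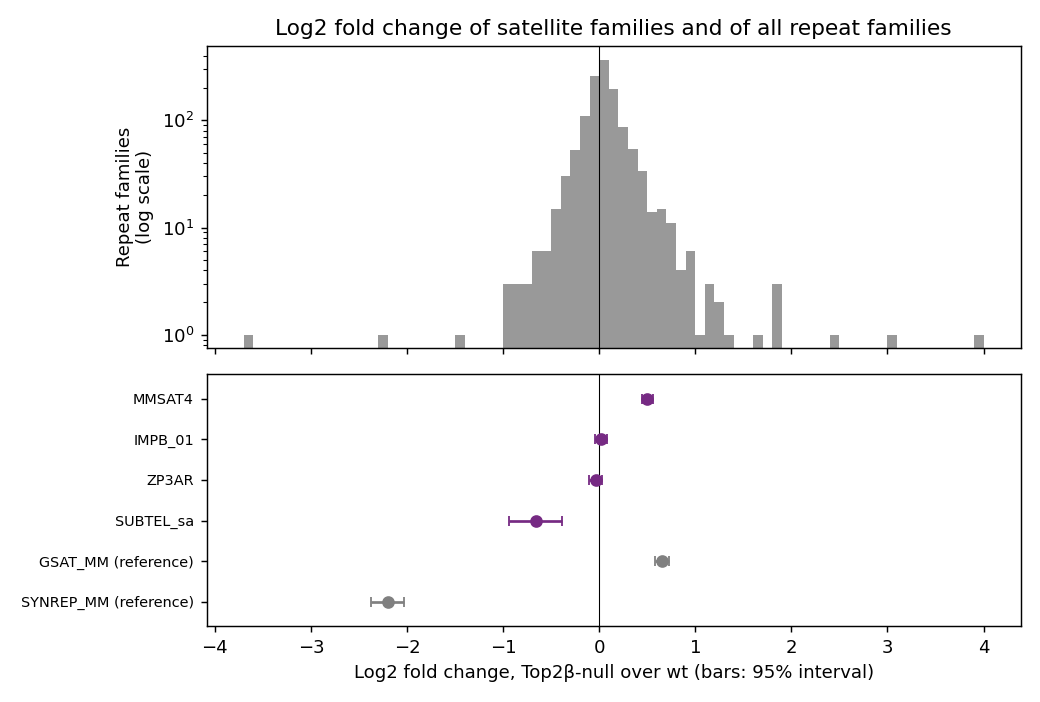
Histogram of the log2 fold change (Top2β-null over wt) of the 1296 repeat families with a mean above 100 normalized counts, with the number of families on a log axis, and below it the fitted satellite families as points with 95% intervals. IMPB_01 and ZP3AR lie within the bulk of the repeat families, MMSAT4 at 0.50 and GSAT_MM at 0.65 lie to the right, and SUBTEL_sa at -0.66 and SYNREP_MM at -2.20 to the left.

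The remaining families were at or near the floor of detection. MurSAT1 had 2 and 6 counts in wt and 10 and 9 in the null cells, 8 against 19 in all, a ratio of 2.44 whose 95% counting interval of 1.02 to 6.43 leaves out the spread between replicates. It was not fitted because too few libraries reached 10 counts. CENSAT_MC, with the centromeric label, had 3 counts in the first wt library and 0 in the other libraries, and no fold is given. The satellite entry (CATTC)n had 0 counts in all 4 libraries, which allows up to 3 counts (a one-sided 95% limit) or 0.0200 to 0.0225 CPM (counts scaled to a common total) in each. The same letters are listed a second time as a simple repeat, with 9 and 15 counts in wt and 11 and 8 in the null cells, and the opposite strand (GAATG)n with 132, 158, 148 and 102 counts in the same order. The latter had a log2 fold change of -0.17 and was not called (adjusted p = 0.430 in edgeR's test). Counts of these pentamers thus stand under the simple repeat entries, outside the satellite class.

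Over the 1296 repeat families with a mean above 100, the median log2 fold change was 0.038, with quartiles of -0.047 and 0.15, and the median over the 6 fitted satellite families was -0.0073. IMPB_01 ranked 723 and ZP3AR 919 from the highest. For each fitted member, the 2 families of other classes whose pattern over the 4 libraries lay nearest were sought among 1290 repeat families, by Euclidean distance of centred log2 normalized counts. IMPB_01 was nearest to the DNA transposon URR1A (distance 0.00597) and the simple repeat (GGAA)n (0.0106). ZP3AR was nearest to the LINE family L1MB3 (0.00899) and the LTR family MTC (0.00940). Those 4 families are of 3 transposon classes and a simple repeat, and their own log2 fold changes lay between -0.041 and 0.016.

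The neighbours of MMSAT4 were both LTR elements of the ERVK group, RLTR13G (distance 0.031, log2 fold change 0.47) and MMETn-int, the internal part of the mouse early transposon (distance 0.040, log2 fold change 0.48). SUBTEL_sa lay nearest to the unclassified family UCON5 (distance 0.074, log2 fold change -0.65) and the simple repeat (GCCTG)n (distance 0.078, log2 fold change -0.68). With 4 libraries, such distances describe likeness in these libraries alone. Neighbours were picked on the same normalized counts, so their fold changes are alike by construction. LTR families make up 598 of the 1290 families compared, so LTR neighbours are common.

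Proteins that bind, modify or build chromatin at pericentric and centromeric satellites were read in the same fit from a list of 25 genes. All 25 were fitted, 10 were called higher and 13 lower (11 or 12 under the alternatives), with a median log2 fold change of -0.057 and a range from -1.34 to 0.98. The share called is high throughout the table, where 32.5% of features were called in each direction. Among writers of repressive marks, Setdb1, an H3K9 methyltransferase, changed by 0.55 (SE 0.025) and the de novo DNA methyltransferase Dnmt3a by 0.98 (SE 0.046). The other writers of the list, and the HP1 genes Cbx1 and Cbx3, lie below the size rule and were named after their values were seen. Of these writers, the pericentric H3K9 methyltransferase Suv39h1 (-0.31) and Dnmt3b (-0.30) were called lower, the H4K20 methyltransferases Kmt5b (0.28) and Kmt5c (0.41) were called higher, and Suv39h2 (-0.027) and Dnmt1 (-0.035) were not called. Uhrf1, which guides maintenance DNA methylation, changed by -0.59 (SE 0.025), and Cbx5, which encodes HP1α, by -0.63 (SE 0.027). The other HP1 genes had log2 fold changes of 0.49 (Cbx3) and -0.079 (Cbx1). Hmga1, a protein that binds AT-rich DNA, had the lowest value at -1.34 (SE 0.028). At the centromere, Cenpb changed from 13008 and 12861 normalized counts in wt to 7346 and 7508 in Top2β-null MEF cells (log2 fold change -0.80, SE 0.026), the CENP-A chaperone Hjurp by -0.80 (SE 0.025), and Mis18a, which acts in CENP-A loading, by 0.56 (SE 0.052). The 8 genes given with an SE passed an adjusted p below 0.05 in edgeR's test, and whether any of them bears on the satellite families was not tested.

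**Figure D4:**
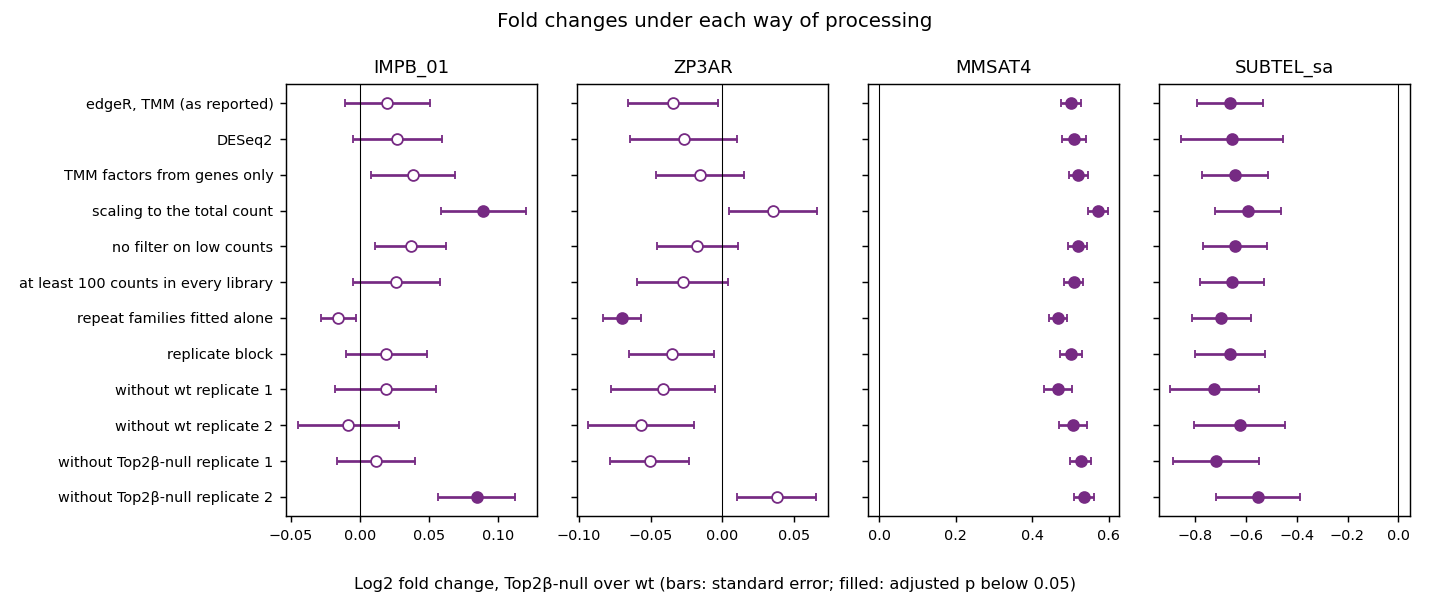
Log2 fold change (Top2β-null over wt) with its SE for the 4 fitted members under each of 12 settings of scaling, filter, tool and libraries, in 1 panel per family with its own axis; filled points have an adjusted p below 0.05. MMSAT4 stays between 0.47 and 0.57 and SUBTEL_sa between -0.72 and -0.55, while IMPB_01 runs from -0.015 to 0.089 and ZP3AR from -0.070 to 0.038.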

How the data were processed

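The authors trimmed paired-end reads with Trim Galore!, mapped them with STAR so that multiply aligned reads were kept, and used TEtranscripts to count Gencode genes and RepeatMasker families. The builds in the submitters' processing notes are GRCm38 and mm10. The deposited values are raw counts per gene and repeat family, not normalized by the authors, with 1 column per library. The mode and strand setting of TEtranscripts are not given in the sources used here. Each family has 1 count over all its copies, so copies inside transcribed genes and in arrays cannot be told apart. Totals ranged from 133116830 to 149647278 counts, and intervals and floors cover counting error alone.

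Libraries were grouped by label. Of 54842 gene identifiers, 54409 matched a symbol. The 26566 features that reached 10 counts in 2 or more libraries, 1481 of them repeat families, were fitted with edgeR 4.0.16 in R 4.3.3, using TMM factors, the quasi-likelihood test with genotype alone and Benjamini-Hochberg adjustment over all of them. The SE was taken from the log2 fold change and the root of its F statistic. DESeq2 1.42.0 was an alternative, as were other scalings, filters, a replicate block and leaving out each library; for the parts of the class change, this last was added after the data were seen. The scripts were tested on simulated data. Shares and sums were compared by exact permutation tests. Replicates differed by more than counting noise, with a chi-square per degree of freedom of 3.65 in wt and 5.07 in the null cells.

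Named are every family of class Satellite, Top2b, listed satellite chromatin genes with an adjusted p below 0.05 and an absolute log2 fold change above 0.5, and the 2 nearest repeat families of other classes per fitted member. Simple repeats of telomeric and pentamer sequence were added later. The members and lists were chosen with earlier results of these data known.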

Additional observations from a re-analysis of the deposited data

How the results depend on the processing

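Of 66 alternative values for the log2 fold changes of the 6 fitted satellite families, 59 lay on the same side of 0 and of the threshold as the reported value, 4 changed sign, 3 passed an adjusted p below 0.05 where the reported value had not, and 0 lost it. IMPB_01, at 0.020 in the report, was at 0.089 when libraries were scaled by total count and at -0.015 with repeat families fitted alone, and from -0.0083 (without wt replicate 2) to 0.084 (without Top2β-null replicate 2) over the fits that left out 1 library. ZP3AR, at -0.034 in the report, was at 0.035 by total count and at -0.070 with repeat families alone, and from -0.057 to 0.038 (without Top2β-null replicate 2) when 1 library was left out. For these 2 families the cause was not tested. MMSAT4 kept 0.47 to 0.57 (adjusted p from 4.0e-54 to 2.2e-05) and SUBTEL_sa -0.70 to -0.59 (adjusted p from 2.0e-05 to 0.00537) over 7 alternatives with all libraries, and 0.47 to 0.54 and -0.72 to -0.55 when 1 library was left out, where the lone library of a group was assumed to vary like the other group. The summed log2 ratio of the other families was 0.12 in the report, 0.088 with repeat families fitted alone, 0.19 with total-count scaling and 0.10 to 0.18 when 1 library was left out. The difference in make-up was 6.29 percentage points without the references, 0.0180 as a share of all repeat counts, whose base is the larger, and 7.15 to 8.15 when 1 library was left out. Counts of satellite families called, references included, were 2 or 3 in each direction under the 7 alternatives with all libraries. The number of all features called varied as well. Of 26566 features, total-count scaling called 10020 higher and 7613 lower, and DESeq2 called 7507 and 7262. With repeat families fitted alone, 252 of 1481 were called higher and 227 lower. The chromatin list, tried under the same alternatives after its values were seen, gave 9 to 10 genes higher and 11 to 12 lower, against 10 and 13 in the report, and no value with repeats fitted alone. Without the filter, MurSAT1 was fitted at 1.28 (adjusted p = 0.202 in edgeR's test). The correlation of same-numbered libraries' deviations was 0.021 over 17952 features, so the numbers were not shown to pair the libraries; with the replicate block the values were 0.019 for IMPB_01, 0.50 for MMSAT4, -0.66 for SUBTEL_sa and -0.035 for ZP3AR, and no call among the satellite families changed. Depth limits the precision for MurSAT1 and CENSAT_MC, and to a lesser degree for SUBTEL_sa.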
